A study of Mus musculus with 3 samples.

Results

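MLT1 repeats are the oldest branch of the mammalian apparent LTR retrotransposons (MaLR), and the 34 repeat names described here are all names of that branch. The rule took every listed name that starts with MLT1, MST or THE1. Of 18484 listed names, 34 start with MLT1, 0 with MST and 0 with THE1, so the group is called MLT1 below. MST and THE1 are branches known from primate genomes. Of the 34 names, 30 denote long terminal repeats (LTRs) and 4 denote internal regions, marked -int.

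An LTR retrotransposon is copied through RNA and inserted back into the genome, with its internal region flanked by a pair of LTRs that hold the promoter and the polyadenylation signal. MaLR elements are non-autonomous relatives of the ERVL retroviruses, carry no envelope gene and relied on enzymes supplied by other elements. MLT1 elements spread before the placental orders separated, so mouse and human share copies of them, and most copies today are diverged and solitary LTRs. In mouse, the younger MaLR branches are ORR1 and MT. By convention the letters of the MLT1 names run roughly from younger (A) to older (O) subfamilies. ZBP1 is a sensor protein whose Zα domains bind left-handed (Z-form) nucleic acid, and RNA that can pair with an inverted copy is the kind of RNA studied as its ligand.

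The data are read counts per repeat name from RNA immunoprecipitation sequencing (RIP-seq), in which RNA that comes down with an antibody is sequenced. There were 3 libraries, each from hippocampus of mice aged 9 months on the C57BL/6 background. ZBP1 was pulled down from PS19 mice in the first (PS19 ZBP1), Z-form nucleic acid (ZNA) from PS19 mice in the second (PS19 ZNA), and ZNA from wild-type mice in the third (WT ZNA). None of the 3 is an input or control-antibody library, so the levels below do not measure enrichment by an antibody. The PS19 line expresses mutant human tau from a transgene under the mouse prion promoter. The labels do not say whether a library pools several mice. With 1 library per group no replicate error exists, so no condition was tested. Each interval below is a 95% interval that covers counting error only. Only repeat names were counted, so the labelled tissue could not be checked against marker genes.

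The library totals were 1425383 reads for PS19 ZBP1, 2918985 for PS19 ZNA and 3234786 for WT ZNA. Most of these reads fell on the ribosomal RNA names LSU-rRNA_Hsa and SSU-rRNA_Hsa, and 74474, 308613 and 145372 reads lay outside them (5.22%, 10.6% and 4.49%). Levels are therefore given on 2 scales: per 1000000 reads of the library total (CPM), and per 1000000 reads outside rRNA. The choice of scale turned the direction of both comparisons of the MLT1 group.

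Together the MLT1 names held 1651 reads in PS19 ZBP1, 4915 in PS19 ZNA and 2481 in WT ZNA. As a share of the library total this was 0.116% for PS19 ZBP1 (Wilson interval 0.110 to 0.122%), 0.168% for PS19 ZNA (0.164 to 0.173%) and 0.0767% for WT ZNA (0.0737 to 0.0798%). On this scale PS19 ZNA was highest and WT ZNA lowest, and no 2 intervals overlapped. As a share of the reads outside rRNA, MLT1 names took 2.22% in PS19 ZBP1 (2.11 to 2.33%), 1.59% in PS19 ZNA (1.55 to 1.64%) and 1.71% in WT ZNA (1.64 to 1.77%). On that scale PS19 ZBP1 was highest, and the ZNA libraries lay close together, with PS19 below WT. Counts from a tissue lysate do not tell fewer source cells, less RNA per cell and less capture by the antibody apart.

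**Figure D1:**
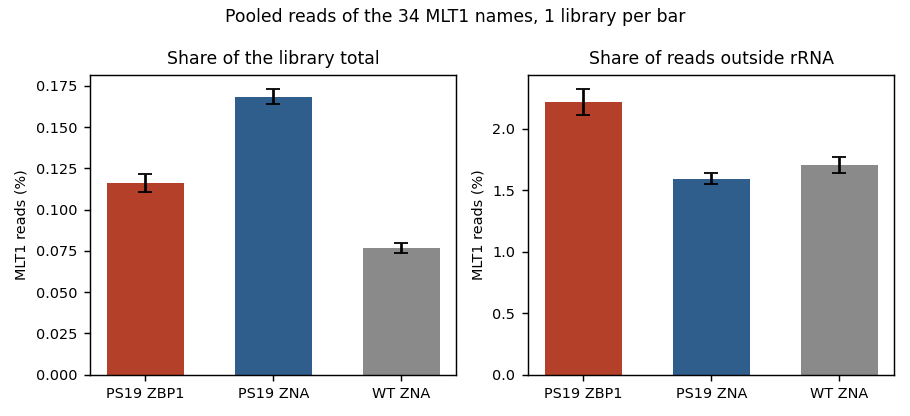
Pooled reads of the 34 MLT1 names as a percentage of the library total (left) and of the reads outside rRNA (right), 1 library per bar, with 95% Wilson intervals for counting error. PS19 ZNA is highest on the left at 0.168%, and PS19 ZBP1 is highest on the right at 2.22%.

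Counts were not divided by the number or length of the genomic copies of a name, so levels of different names do not compare RNA per copy. The subfamilies from MLT1A to MLT1D, 7 LTR names at the younger end, carried most of the reads: 1066 in PS19 ZBP1, 3185 in PS19 ZNA and 1611 in WT ZNA. MLT1D, the name with the most reads, had 142 CPM in PS19 ZBP1 (203 reads), 226 CPM in PS19 ZNA (661 reads) and 88.7 CPM in WT ZNA (287 reads). MLT1A0 had 163, 200 and 92.4 CPM in these libraries, in the same order. Both names were highest in PS19 ZNA and lowest in WT ZNA per library total. This was not particular to them: 30 of the 34 MLT1 names were highest in PS19 ZNA on that scale. The share of all names that were highest in PS19 ZNA was not computed. In the separate pairs of libraries, 97.5% of all names compared were higher in PS19 ZNA than in WT ZNA, and 9.09% were higher in PS19 ZBP1 than in PS19 ZNA. MLT1C2 had 133, 164 and 95.2 CPM. MLT1B had 101, 168 and 79.8 CPM. The order differed between these names when levels were taken per 1000000 reads outside rRNA: MLT1D stood at 2726, 2142 and 1974, and MLT1C2 at 2551, 1555 and 2119. The PS19 ZNA value was thus the middle one for MLT1D and the lowest for MLT1C2. The other 3 names, MLT1A, MLT1C and MLT1A1, ranged from 57.5 to 87.7 CPM in PS19 ZBP1, from 93.9 to 135 CPM in PS19 ZNA and from 35.2 to 56.9 CPM in WT ZNA.

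The subfamilies from MLT1E to MLT1I, 17 names that include MLT1F-int and MLT1H-int, held 433, 1326 and 656 reads in PS19 ZBP1, PS19 ZNA and WT ZNA. The 3 names with the most summed reads were MLT1F2 with 44.2, 64.4 and 24.7 CPM in that order of libraries, MLT1E2 with 39.3, 58.2 and 28.4 CPM, and MLT1F with 33.7, 62.0 and 23.2 CPM. All 3 were highest in PS19 ZNA. MLT1H stood apart from them in how near its PS19 values were, with 33.7 CPM in PS19 ZBP1 and 35.3 CPM in PS19 ZNA, against 21.6 CPM in WT ZNA. MLT1E3 had the PS19 ZNA level of MLT1H, 35.3 CPM on 103 reads, but 13.3 CPM in PS19 ZBP1 (19 reads) and 8.66 CPM in WT ZNA (28 reads).

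The subfamilies from MLT1J to MLT1O, the older end, were the thinnest, with 149, 384 and 201 reads over 9 names. MLT1J had 26.0 CPM in PS19 ZBP1, 39.1 in PS19 ZNA and 17.6 in WT ZNA. MLT1K had 24.6, 27.7 and 20.4 CPM, the narrowest fold range over the libraries among the names with at least 100 summed reads. MLT1L had 24.6, 23.0 and 9.58 CPM, so its PS19 values were level and WT ZNA was lower. Internal names were nearly empty: MLT1-int, MLT1F-int, MLT1H-int and MLT1J-int together had 13, 48 and 25 reads, or 9.12, 16.4 and 7.73 CPM. MLT1F-int had 5 reads in PS19 ZNA and 0 in the other libraries. A count of 0 allows up to 3 reads, which is 2.10 CPM in PS19 ZBP1 and 0.927 CPM in WT ZNA, so its 1.71 CPM in PS19 ZNA was not distinguishable from PS19 ZBP1.

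**Figure D2:**
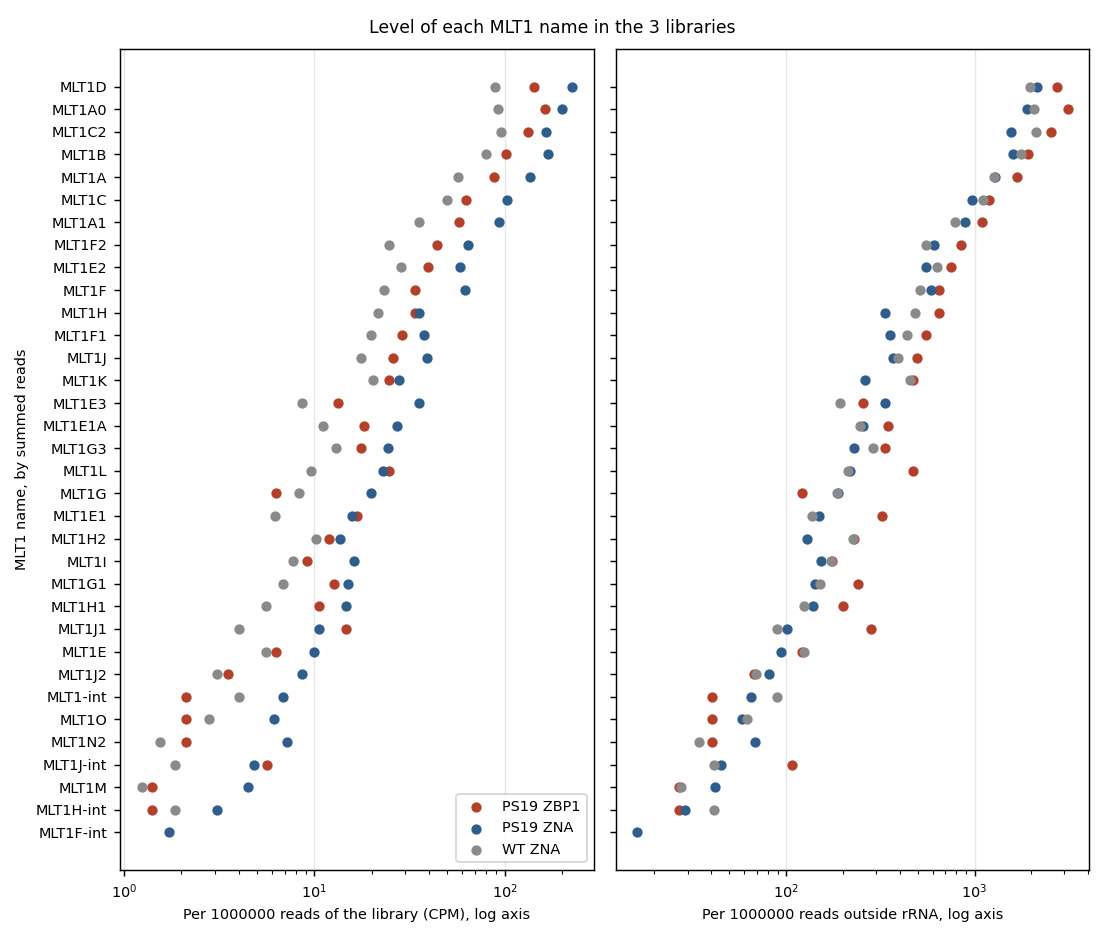
Level of each of the 34 MLT1 names, ordered by summed reads, as CPM (left) and per 1000000 reads outside rRNA (right), both on log axes, with 1 point per library. MLT1F-int, at 0 reads in PS19 ZBP1 and WT ZNA, has a point for PS19 ZNA alone; on the right the PS19 ZBP1 points of MLT1D and MLT1A0 lie farthest right of all, at 2726 and 3129.

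The order of the names was similar in the 3 libraries. Spearman's rho across the 34 names was 0.974 between the ZNA libraries, 0.969 between PS19 ZBP1 and PS19 ZNA, and 0.967 between PS19 ZBP1 and WT ZNA. These describe names that share a library, and names with many reads stay high in each. The 5 names with the most reads were MLT1A, MLT1A0, MLT1B, MLT1C2 and MLT1D in every library and held 54.2%, 53.1% and 53.8% of the MLT1 reads in PS19 ZBP1, PS19 ZNA and WT ZNA. The name at the top was MLT1A0 in PS19 ZBP1, MLT1D in PS19 ZNA and MLT1C2 in WT ZNA. The 16 names under 100 summed reads had 5 to 94 reads each.

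The first comparison set PS19 against WT in the ZNA pull-down. Per library total, MLT1 reads were 2.20-fold higher in PS19 (interval 2.09 to 2.30), and each of the 31 names compared was higher, near the 97.5% of all 713 names that were. All reads outside rRNA were 2.35-fold higher in the same comparison (2.34 to 2.37), so MLT1 lay slightly below the shift shared by the other repeats. MLT1 was 1.07-fold lower in PS19 per reads outside rRNA (1.02 to 1.12). Whether 2 libraries of the same kind would differ by that much was not measured.

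Names under 20 summed reads, or averaging under 1 CPM in the pair of libraries, were not compared, which left out MLT1F-int, MLT1H-int and MLT1M. Each ratio of a single name in these counts and medians was taken on log2 of the level plus a pseudocount of 1, so that changes of low names are understated. Per library total, 21 of 31 MLT1 names were at least 2-fold higher in PS19, against 74.3% of the 713 names compared. None of the 31 was at least 2-fold lower, against 0.421%. The median log2 ratio was 1.11 for MLT1 and 1.24 over all names. Per reads outside rRNA, 0 of 31 were at least 2-fold higher (4.64% of 711 names) and 0 at least 2-fold lower (2.95%). The median was then -0.085, against 0.079 over all names, with 15 MLT1 names above 0 and 16 below; over all names 59.6% were above 0.

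Per library total, 25 of the 31 names had an exact interval wholly above 1 (84.3% of all names) and 0 had one wholly below 1 (0.842%). These intervals are not adjusted for the number of names. Among single names, 4 had an exact interval wholly below 1 per reads outside rRNA, against 6.47% of all names, and 1 had an interval wholly above 1, against 14.6%. MLT1K was lowest among the names with at least 100 reads over the 2 libraries, with 81 reads in PS19 and 66 in WT, a 1.73-fold lower value (1.23 to 2.42). MLT1H was 1.44-fold lower (1.05 to 1.97) and MLT1C2 1.36-fold lower (1.18 to 1.58). The fourth, MLT1H2, had 40 and 33 reads and falls outside the rule for named repeats; it is given because it completes the count. MLT1G3 and MLT1F1 completed the 5 lowest, at 1.26-fold and 1.24-fold lower, with intervals that include no change. MLT1E3 was highest, with 103 and 28 reads, 1.73-fold higher (1.13 to 2.73). MLT1F, MLT1A1, MLT1F2 and MLT1D followed at 1.14-fold, 1.13-fold, 1.11-fold and 1.08-fold, all with intervals that include no change.

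The antibodies were compared next, ZBP1 against ZNA in PS19 mice. Per library total, MLT1 reads were 1.45-fold lower in the ZBP1 library (1.37 to 1.54), where all reads outside rRNA were 2.02-fold lower (2.01 to 2.04). Scaled to the reads outside rRNA, MLT1 was therefore 1.39-fold higher in the ZBP1 library (1.32 to 1.47). MLT1D was 1.27-fold higher on that scale, MLT1A0 1.65-fold and MLT1C2 1.64-fold.

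Per library total, 6 of 31 MLT1 names lay at least 2-fold below their ZNA level in ZBP1, against 50.1% of 682 names, and 0 were at least 2-fold higher, against 0.293%. The 6 had from 3 reads (MLT1-int) to 19 reads (MLT1E3) in the ZBP1 library. Those with 3 reads there passed the filter only through their PS19 ZNA reads, so their place in this count was partly set by the filter. The median log2 ratio was -0.56 for MLT1 and -1.002 over all names. Per reads outside rRNA, 4 of 31 were at least 2-fold higher (9.12% of 680 names) and 0 at least 2-fold lower (9.41%). The 4 were MLT1E1, MLT1J1, MLT1L and MLT1J-int. MLT1E1 and MLT1J1 had 24 and 21 reads in the ZBP1 library, MLT1J-int had 8; these 3 lie outside the rule for named repeats and were chosen on their values. The median was 0.45, against -0.054 over all names, and 25 of 31 MLT1 names lay above 0, against 47.2% of all names. This was not particular to MLT1: 88.9% of ORR1 names and 90.9% of MTA to MTE names lay above 0. Among names that start with LTR and a number the share was lower, 69.6%.

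An exact interval per library total lay wholly below 1 for 14 of 31 names (67.3% of all names) and wholly above 1 for 0 (2.35%). Of the 31 names, 12 had an exact interval wholly above 1 per reads outside rRNA, against 18.8% of all names, and 0 had one wholly below 1, against 18.7%. The 5 highest among names with at least 100 reads were MLT1L, MLT1H, MLT1K, MLT1A0 and MLT1C2. MLT1L was 2.16-fold higher (1.40 to 3.31) on 35 and 67 reads. MLT1H was 1.93-fold higher (1.34 to 2.75), and MLT1K 1.79-fold (1.17 to 2.69). MLT1A0, on 233 and 584 reads, gave a tighter interval of 1.41-fold to 1.93-fold, and MLT1C2 one of 1.38-fold to 1.94-fold. The 5 lowest were MLT1E3, MLT1F, MLT1B, MLT1C and MLT1A1. MLT1E3, on 19 and 103 reads, was 1.31-fold lower with an interval that includes no change. The other 4 were 1.10-fold to 1.24-fold higher, and the interval of MLT1B alone lay above 1 (1.002 to 1.47).

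**Figure D3:**
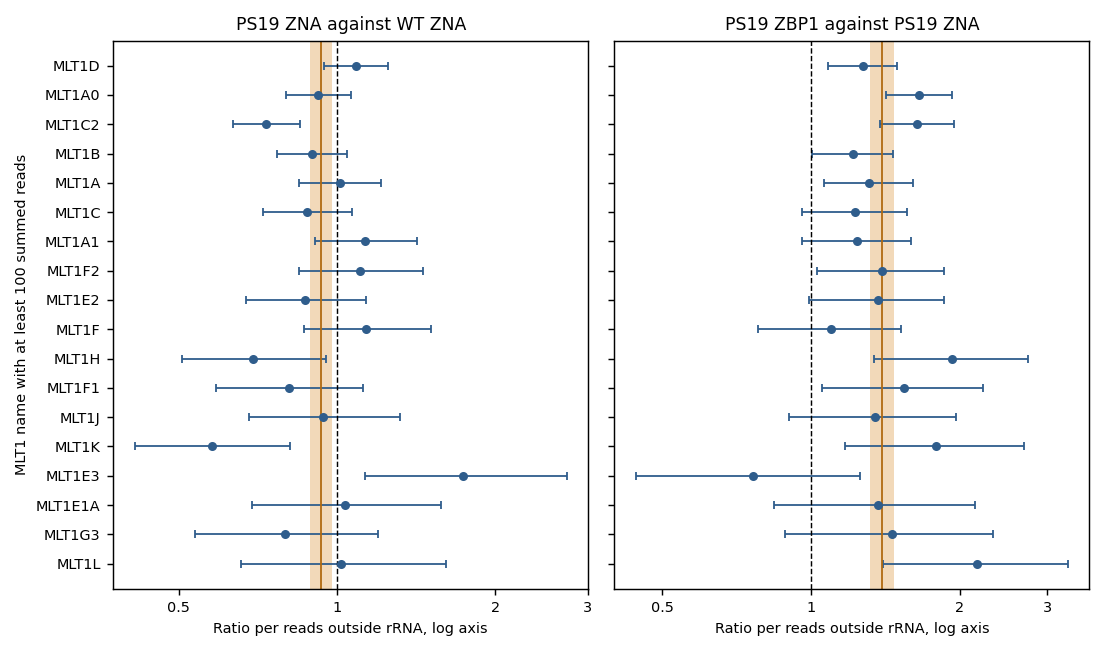
Ratio per reads outside rRNA of the 18 MLT1 names with at least 100 summed reads, on log axes, for PS19 ZNA against WT ZNA (left) and PS19 ZBP1 against PS19 ZNA (right). Points are ratios with 95% exact intervals for counting error, the shaded band is the pooled MLT1 ratio with its interval (0.933 left, 1.39 right), and the dashed line marks no change; most intervals cross the band, and the interval of MLT1E3 misses the pooled ratio in both panels.

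The PS19 ZNA library is the numerator of the first comparison and the denominator of the second. A name that is low in that library is therefore low in one and high in the other. Values of the 3 libraries per 1000000 reads outside rRNA show this side by side. MLT1H stood at 645 in PS19 ZBP1, 334 in PS19 ZNA and 482 in WT ZNA, and MLT1K at 470, 262 and 454. In both, PS19 ZNA was lowest and PS19 ZBP1 highest. MLT1E3 stood at 255, 334 and 193, with PS19 ZNA highest. MLT1L stood at 470, 217 and 213, where the ZNA libraries were level and PS19 ZBP1 was apart.

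MLT1 names spread somewhat more than counting error gives. Among the 17 names with at least 100 reads over the 2 libraries, log2 ratios had a standard deviation of 0.35 in the first comparison, where counting error alone gives 0.20. In the second it was 0.34 against 0.23, over another 17 names that include MLT1L in place of MLT1G3. Of the 31 names, 27 had an interval that held the pooled MLT1 ratio in the first comparison and 26 in the second. The exceptions were MLT1C2, MLT1D, MLT1E3 and MLT1K in the first, and MLT1A0, MLT1E3, MLT1G, MLT1J1 and MLT1L in the second. How reads that fit several subfamilies were assigned is not given in the sources used here, and its part in this spread was not tested.

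Groups of names by subfamily letter could not be told apart at this depth. Per reads outside rRNA, the PS19 to WT ratio in the ZNA pull-down was 0.931 for MLT1A to MLT1D (0.877 to 0.989), 0.952 for MLT1E to MLT1I (0.866 to 1.05) and 0.900 for MLT1J to MLT1O (0.757 to 1.07). The ZBP1 to ZNA ratio in PS19 was 1.39 (1.29 to 1.49), 1.35 (1.21 to 1.51) and 1.61 (1.32 to 1.95) for these groups. The ratio of MLT1A to MLT1D over that of MLT1J to MLT1O was 0.863 in the second comparison, with an exact interval of 0.703 to 1.06 that includes equal ratios. A difference of up to 1.42-fold between the youngest and oldest names is thus within counting error here. Internal names had a ZBP1 to ZNA ratio of 1.12 (0.558 to 2.10), too wide to be told from the 1.39 of the LTR names.

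MLT1 was then set against the rodent MaLR branches and against other old LTRs. ORR1 (18 names) and MTA to MTE (11 names) are MaLR elements that spread in rodents, and the 96 names that start with LTR and a number include many that predate rodents. Their shares of the reads outside rRNA in PS19 ZBP1, PS19 ZNA and WT ZNA were 9.72%, 7.64% and 7.08% for ORR1, and 9.79%, 7.62% and 7.60% for MTA to MTE. LTR-numbered names took 0.521%, 0.355% and 0.363%. The ratio of 2 such ratios does not depend on how the libraries are scaled.

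In PS19 against WT, the MLT1 ratio was 1.16-fold below that of ORR1 (exact interval 1.09 to 1.22) and 1.07-fold below that of MTA to MTE (1.02 to 1.13). It was 0.955 times that of the LTR-numbered names, with an interval of 0.850 to 1.07 that includes equal ratios. In ZBP1 against ZNA, the MLT1 ratio was 1.09-fold above that of ORR1 (1.03 to 1.16) and 1.08-fold above that of MTA to MTE (1.02 to 1.15). It was 0.948 times that of the LTR-numbered names (0.832 to 1.08). MLT1 thus differed from both rodent branches by more than counting error in both comparisons, and from the LTR-numbered names in neither. The intervals around the latter still allow a difference of 1.18-fold and 1.20-fold. Both comparisons use the PS19 ZNA library, so the differences from the rodent branches are not independent of each other. A deviation of that library alone would appear in both, in opposite directions. All of these differences are small beside the shift of all reads outside rRNA between libraries, and no replicate library measures how far 2 families drift apart between pull-downs of the same kind.

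**Figure D4:**
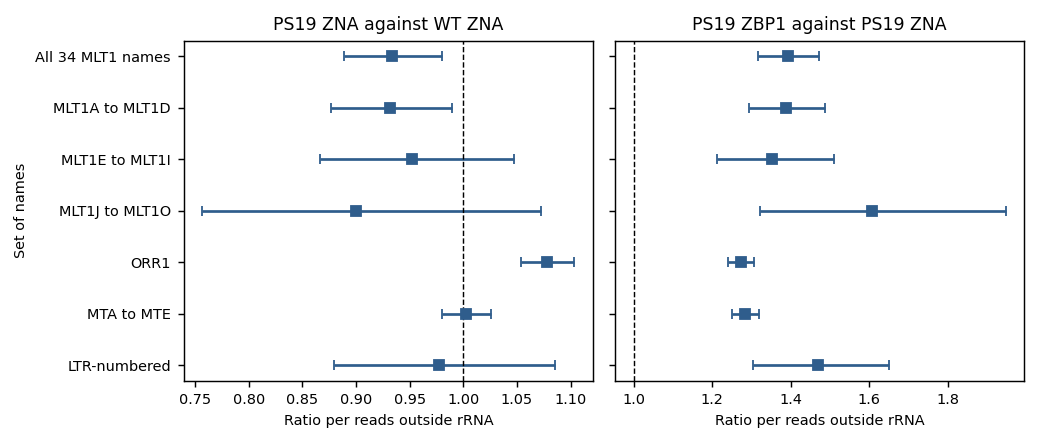
Ratio per reads outside rRNA of pooled reads for all MLT1 names, 3 groups of MLT1 subfamilies, ORR1, MTA to MTE and LTR-numbered names, with 95% exact intervals for counting error and a dashed line at no change. On the left (PS19 ZNA against WT ZNA) all MLT1 names lie at 0.933 and ORR1 at 1.08; on the right (PS19 ZBP1 against PS19 ZNA) every set lies above 1, from 1.27 for ORR1 to 1.61 for MLT1J to MLT1O.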

How the data were processed

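The deposited files hold whole-number read counts per repeat name, 1 file per library, not normalized, as the values and file headers show. The submitters' processing notes name Trim Galore 0.6.5, STAR 2.5.3a, featureCounts 2.0.4 and the genome build mm39. The repeat annotation, the strand setting and how multi-mapping reads were counted are not given in the sources used here. A name pools all its genomic copies, so no position, sequence or gene context is given.

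Pooled counts were divided by the library total or by the reads outside the 2 rRNA names. Shares have 95% Wilson intervals. Ratios have exact conditional (Clopper-Pearson) 95% intervals, and ratios of ratios have exact conditional odds-ratio intervals. Reads carry no molecular identifiers, so intervals and the limit of 3 reads cover counting error only. edgeR's quasi-likelihood test could not be fitted with 1 library per group. Names were called at 2-fold. In each comparison, the 5 highest and 5 lowest names per reads outside rRNA with at least 100 reads were named, as were names with at least 100 summed reads. The pseudocount (0.1 or 5), the filter (none, or 10 CPM on average) and the limit were varied, with limits of 1.5-fold and 4-fold. Further alternatives were scaling by TMM (edgeR 4.0.16), by DESeq2 1.42.0 size factors or to reads on transposable-element names, LTR names only, and leaving out MLT1D. Members and lists were chosen with earlier results of these data known. Ratios of single names per library total were tested on simulated counts that carried counting error only. Pooled ratios, ratios of ratios and the scale outside rRNA were not part of that simulation. Scripts ran in R 4.3.3 and Python 3.11.15 with scipy 1.17.1, pandas 2.3.3, numpy 2.4.6 and matplotlib 3.10.9.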

Additional observations from a re-analysis of the deposited data

How the results depend on the processing

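Scaling turned the direction of both pooled MLT1 ratios. The log2 ratio of PS19 against WT in the ZNA pull-down, 1.13 per library total, became -0.091 under TMM and -0.14 under DESeq2 size factors. That of ZBP1 against ZNA in PS19, -0.54, became 0.32 and 0.42. Per reads outside rRNA the pooled values were -0.10 and 0.48. The change from the library total to the reads outside rRNA follows by arithmetic from the share of reads outside rRNA. That share was 5.22% in PS19 ZBP1, 10.6% in PS19 ZNA and 4.49% in WT ZNA. Why it differed between libraries, and why TMM and DESeq2 scaling turned the ratios, was not tested. Per reads on transposable-element names, the first ratio moved from -0.10 to -0.18. A pseudocount of 5, which pulls ratios of low names toward 0 by construction, gave a PS19 against WT median of 0.90, left 8 in place of 21 names at least 2-fold higher in PS19 per library total, and left 2 in place of 6 names lower in ZBP1. A mean of at least 10 CPM also left 2 of these, with fewer names compared. At 4-fold, all of these counts and the 4 names higher in ZBP1 per reads outside rRNA became 0. At 1.5-fold, 13 names were lower in ZBP1 per library total. Per reads outside rRNA, that limit gave 11 higher and 3 lower names in ZBP1, and 2 higher and 2 lower in PS19 against WT. Without a filter, 1 name, MLT1F-int (5 reads), was at least 2-fold higher in PS19 than WT and lower in ZBP1 per reads outside rRNA. Shares of all names were computed at the main settings only, so other counts cannot be set against the shift of all repeats. Leaving out MLT1D lowered the MLT1 share of the library total to 0.102%, 0.146% and 0.0678% in PS19 ZBP1, PS19 ZNA and WT ZNA, and that of the reads outside rRNA to 1.94%, 1.38% and 1.51%. On each scale the order of the libraries was that with MLT1D included. Of 118 recomputed values, the other 93 kept their direction and stayed within the counting interval, within 1.5 times (counts of names) or, for medians, within 0.5 of the width of the pooled ratio's interval, among them all 28 with LTR names only and, in an alternative chosen after seeing the data, all 4 with MLT-int added. Part of this agreement was fixed in advance. MLT1A to MLT1D holds no internal name, so its ratios could not change with LTR names only. MLT1 internal names held just 13, 48 and 25 reads in PS19 ZBP1, PS19 ZNA and WT ZNA. A count of 0 at 2-fold also has to stay 0 at 4-fold. No paired analysis was possible because each group has 1 library, and no library could be left out. PS19 ZBP1 is the shallowest library, with 0.702 CPM to a read.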
